A study of Danio rerio with 19 samples.

Results

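The inflammatory cytokine genes *il1b* (ENSDARG00000098700), *tnfa* (ENSDARG00000009511) and *cxcl8a* (ENSDARG00000104795) were followed through bulk RNAseq libraries of regenerating and intact zebrafish tail fins. They were chosen by name and Ensembl ID, as 3 of the 32520 genes in the count table, and all 3 were among the 20979 genes past the low-count filter. *tnfa* passed that filter through the injured groups, where it was counted, and so a difference between injured and uninjured tissue was built into its being tested.

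The 19 libraries were made from WIK larvae at 4 dpf, with tail fins pooled from several embryos per library. Injured *yap1* Crispants had 4 libraries, and uninjured *yap1* Crispants, injured *wwtr1* Crispants, uninjured *wwtr1* Crispants, injured WT fish and uninjured WT fish had 3 each. Injured larvae had lost the distal tail, fin fold and part of the notochord included, at 3 dpf and recovered for 24 h, whereas uninjured larvae were not cut before collection, and in all groups the tail was taken from the pigment gap onwards. Crispants were F0 fish injected with Cas9 and guide RNAs against *yap1* or *wwtr1* (the gene for Taz), and are mosaics of edited alleles rather than a line. The sources used here do not say whether the sequenced WT fish received an injection. Separate pools stand behind the replicates as far as the labels tell.

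Il1b is an early pro-inflammatory cytokine that is made as a precursor and matured by inflammatory caspases. Tnfa acts through the Tnfr1 and Tnfr2 receptors, and in larval zebrafish fins its expression is used to mark M1-like macrophages. Cxcl8a is a chemokine that draws neutrophils to wounds through Cxcr1 and Cxcr2, and in humans the matching ligands are induced through NF-κB in leukocytes and in epithelial cells.

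Total counts ranged from 28081131 to 80837847 per library, with a median of 44618000. Levels are given as CPM, the count scaled to the TMM-normalised library size, where a floor of 3 counts lay between 0.0368 and 0.0966 CPM depending on the library. Where libraries of different groups are said not to overlap, this only describes their values. The share of all genes that separated likewise is not given. The targeted genes did not check the labels, since *yap1* ranged from 136 to 276 CPM in *yap1* Crispants against 134 to 289 CPM in WT fish, and *wwtr1* from 0.444 to 1.24 CPM in *wwtr1* Crispants against 0.523 to 1.19 CPM in WT fish. All 5 epidermal markers searched were counted, with a summed level of 48380 to 101600 CPM in injured libraries and 88690 to 157800 CPM in uninjured libraries, so the tissue label fits its markers. Libraries of injured *yap1* replicate 4 and uninjured *yap1* replicates 2 and 3 stood above others of their group in *il1b*, and *tnfa* was far higher in injured *yap1* replicate 3 than in the rest of its group, so values are also given without the library concerned where it changes them.

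*tnfa* was close to absent from uninjured fins and was counted in every injured library. In injured *yap1* Crispants it had 6, 7, 25 and 5 counts, or 0.0735, 0.148, 0.640 and 0.161 CPM, against 0, 1 and 0 counts in uninjured *yap1* Crispants. In injured *wwtr1* Crispants it had 11, 19 and 9 counts, or 0.327, 0.422 and 0.172 CPM, against 0, 1 and 0 counts in uninjured *wwtr1* Crispants. In injured WT fish it had 4, 18 and 3 counts, or 0.0703, 0.237 and 0.0747 CPM, against 0 counts in all 3 uninjured WT libraries. No injured library overlapped an uninjured library, a description given without the share of all genes that separated likewise. The 10 injured libraries held 107 counts in all against 2 in the 9 uninjured libraries. The counts behind each value were nevertheless few, and the highest injured library had 25.

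**Figure D1:**
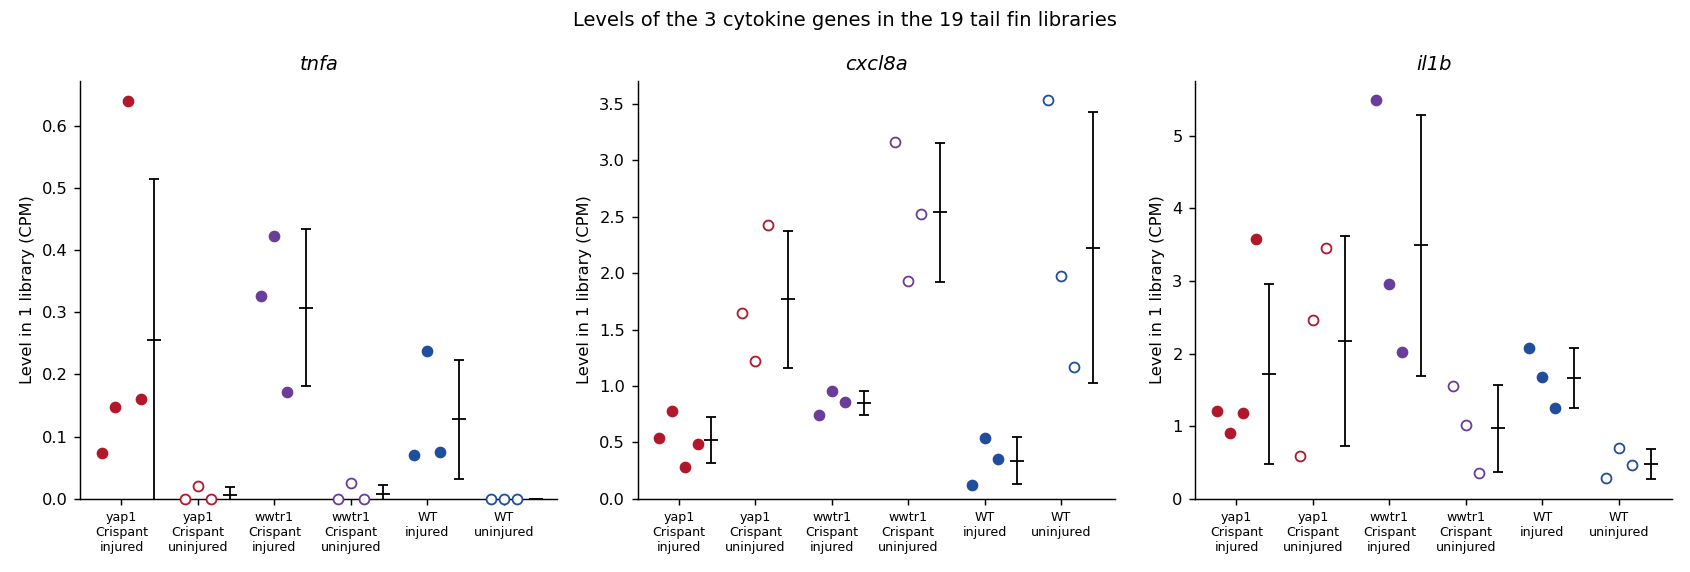
Level of *tnfa*, *cxcl8a* and *il1b* (CPM, linear axes from 0) in each library of the 6 groups, with filled points for injured and open points for uninjured fins and black bars for mean ± SD (n = 4 in injured *yap1* Crispants, n = 3 elsewhere). Every injured library lies above every uninjured library for *tnfa* and below every uninjured library for *cxcl8a*, whereas for *il1b* injured and uninjured *yap1* Crispants overlap. The share of all genes that separate likewise is not given.

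Pooled over libraries, *tnfa* in injured WT fish was 8.30-fold the floor set for uninjured WT fish (25 counts against 0). The floor was 3 counts over the uninjured group, or 0.0174 CPM. This ratio to the floor leaves out the error of the injured counts, so it is no lower limit like those of the intervals below. The pooled ratio of injured to uninjured was 29.6 in *yap1* Crispants (43 counts against 1, 95% counting interval 5.03 to 1195) and 42.5 in *wwtr1* Crispants (39 counts against 1, interval 7.19 to 1721). These intervals were computed on pooled counts, so they cover counting error only and leave out the spread between libraries. Reads carried no molecular identifiers, so copies of 1 molecule may have been counted more than once. Single libraries moved these values. In *yap1* Crispants the ratio was 15.4 without injured replicate 3 (18 counts against 1, interval 2.43 to 642) and 18.3 without uninjured replicate 1. Without uninjured replicate 2, which held the 1 count, *tnfa* in injured *yap1* Crispants was 6.22-fold the floor. In *wwtr1* Crispants the ratio was 24.0 without uninjured replicate 1, and without uninjured replicate 2 *tnfa* in injured *wwtr1* Crispants was 10.2-fold the floor. In WT fish the ratio to the floor was 4.14 without injured replicate 2 (7 counts against 0) and 4.62 without uninjured replicate 3. By edgeR's quasi-likelihood test, with p-values adjusted by Benjamini and Hochberg's method over all genes tested, *tnfa* rose upon injury in *yap1* Crispants (adjusted p = 0.0226), *wwtr1* Crispants (adjusted p = 0.0191) and WT fish (adjusted p = 0.0141). Since *tnfa* passed the low-count filter through the injured groups, a rise was favoured in advance, and these p-values add no independent support for it. The fitted log2 fold changes of 4.72, 4.98 and 5.74 depend on edgeR's prior count and bound nothing. *tnfa* was 1 of the 5.46% of genes raised in *yap1* Crispants, of the 6.26% raised in *wwtr1* Crispants and of the 8.24% raised in WT fish, each out of 20979.

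The *tnfa* call rested on few reads, and leaving out 1 library was enough to end it in every genotype. In *yap1* Crispants the adjusted p was 0.0933 without uninjured replicate 1, 0.0705 without uninjured replicate 3 and 0.0668 without injured replicate 3. In *wwtr1* Crispants it was 0.0873 without uninjured replicate 1, 0.0766 without uninjured replicate 3 and 0.0547 without injured replicate 2, and in WT fish 0.0517 without uninjured replicate 3 and 0.0540 without injured replicate 2. The fitted direction was up in each of these fits.

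*cxcl8a*, the neutrophil chemoattractant, went the opposite way. It had 0.539, 0.782, 0.282 and 0.483 CPM in injured *yap1* Crispants, against 1.65, 1.22 and 2.43 CPM in uninjured *yap1* Crispants. It had 0.743, 0.956 and 0.860 CPM in injured *wwtr1* Crispants, against 3.16, 1.93 and 2.53 CPM in uninjured *wwtr1* Crispants. It had 0.123, 0.540 and 0.349 CPM in injured WT fish, against 3.53, 1.98 and 1.17 CPM in uninjured WT fish. All 10 injured libraries, at 0.956 CPM or less, lay below all 9 uninjured libraries, at 1.17 CPM or more. The share of all genes that separated likewise is not given.

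*cxcl8a* averaged 0.521 ± 0.206 CPM in injured and 1.77 ± 0.611 CPM in uninjured *yap1* Crispants (SD, n = 4 and n = 3), a log2 fold change of -1.75 (SE 0.48, adjusted p = 0.0173 from edgeR). It averaged 0.853 ± 0.107 CPM in injured and 2.54 ± 0.614 CPM in uninjured *wwtr1* Crispants (SD, n = 3 each), a log2 fold change of -1.57 (SE 0.51, adjusted p = 0.0426 from edgeR). It averaged 0.337 ± 0.209 CPM in injured and 2.23 ± 1.20 CPM in uninjured WT fish (SD, n = 3 each), a log2 fold change of -2.70 (SE 0.54, adjusted p = 0.0016 from edgeR). *cxcl8a* thus fell upon injury in all 3 genotypes, where 4.44% of genes were lowered in *yap1* Crispants, 4.74% in *wwtr1* Crispants and 7.79% in WT fish. The WT call held in each of the 6 fits that left out a WT library, with log2 fold changes from -3.25 to -2.20. The *yap1* call was lost without uninjured *yap1* replicate 3 (adjusted p = 0.0721), and the *wwtr1* call was lost without any 1 of its 6 libraries (adjusted p from 0.0575 to 0.131).

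Markers of the tissue moved in the same comparisons. Of the 5 epidermal markers, *krt5*, a basal keratin, fell in all 3 genotypes, with log2 fold changes of -1.50 in *yap1* Crispants, -1.43 in *wwtr1* Crispants and -1.40 in WT fish, and the other 4 passed in none. Only 1 of the 5, *cdh1*, had a log2 fold change above 0, and it did so in all 3 genotypes. *cdh1* averaged 815 CPM in injured and 424 CPM in uninjured *yap1* Crispants. Its means were 518 and 331 CPM in *wwtr1* Crispants and 566 and 288 CPM in WT fish, in the same order. Of the 2 notochord markers tested, *col9a2* fell in all 3 genotypes and *tbxta* in WT fish. The summed notochord level was 165 to 281 CPM in injured and 354 to 509 CPM in uninjured *yap1* Crispants, 122 to 274 CPM in injured and 402 to 480 CPM in uninjured *wwtr1* Crispants, and 55.1 to 178 CPM in injured and 404 to 536 CPM in uninjured WT fish. The part of tissue composition in the fall of *cxcl8a* was not tested, and in bulk tissue fewer cells of a type and less RNA per cell cannot be told apart.

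*il1b* was detected in every library, and its response to injury was the least uniform of the 3 cytokines across genotypes. It had 1.21, 0.908, 1.18 and 3.57 CPM in injured *yap1* Crispants, against 0.594, 2.47 and 3.45 CPM in uninjured *yap1* Crispants. It had 5.50, 2.96 and 2.02 CPM in injured *wwtr1* Crispants, against 1.55, 1.02 and 0.347 CPM in uninjured *wwtr1* Crispants. It had 2.08, 1.67 and 1.24 CPM in injured WT fish, against 0.284, 0.700 and 0.459 CPM in uninjured WT fish. Injured and uninjured libraries separated in WT fish and in *wwtr1* Crispants, but in *yap1* Crispants uninjured replicates 2 and 3 were above 3 of the 4 injured libraries. The share of all genes that separated likewise in WT fish or *wwtr1* Crispants is not given.

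*il1b* averaged 1.72 ± 1.24 CPM in injured and 2.17 ± 1.45 CPM in uninjured *yap1* Crispants (SD, n = 4 and n = 3), and its log2 fold change was -0.34 (SE 0.60, adjusted p = 0.751 from edgeR). The means were 3.49 ± 1.80 CPM in injured and 0.970 ± 0.602 CPM in uninjured *wwtr1* Crispants (SD, n = 3 each), a 3.60-fold difference with a log2 fold change of 1.83 (SE 0.66, adjusted p = 0.0673 from edgeR). The means were 1.66 ± 0.415 CPM in injured and 0.481 ± 0.209 CPM in uninjured WT fish (SD, n = 3 each), a 3.46-fold difference with a log2 fold change of 1.78 (SE 0.67, adjusted p = 0.0640 from edgeR). *il1b* was therefore not called upon injury in any genotype by edgeR. DESeq2 called it in *wwtr1* Crispants (adjusted p = 0.0292) and in WT fish (adjusted p = 0.0266), and over all alternatives its adjusted p ranged from 0.0292 to 0.248 in *wwtr1* Crispants and from 0.0233 to 0.194 in WT fish. In *yap1* Crispants the sign turned without uninjured replicate 3 (log2 fold change 0.15), and without injured replicate 4 the log2 fold change was -0.97, both uncalled.

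**Figure D2:**
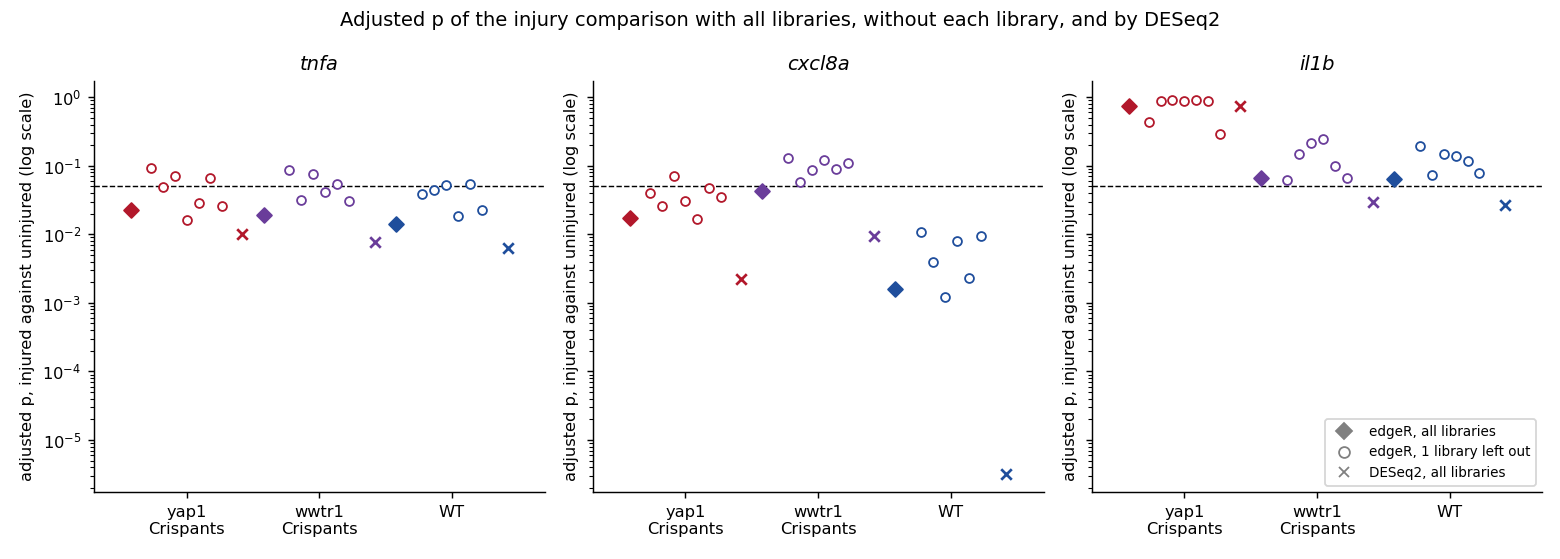
Adjusted p (log axis) of injured against uninjured fins for *tnfa*, *cxcl8a* and *il1b* in each genotype, as diamonds for edgeR with all libraries, open circles for edgeR without 1 library of the groups compared and crosses for DESeq2, with the dashed line at 0.05. For *cxcl8a* in WT fish every circle lies below the line, for *cxcl8a* in *wwtr1* Crispants every circle lies above it, and for *tnfa* the circles fall on both sides in each genotype.

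Before injury, *yap1* Crispants had the highest mean *il1b* among the 3 uninjured groups. The level in uninjured *yap1* Crispants was 4.51-fold that in uninjured WT fish, with a log2 fold change of 2.15 (SE 0.68, adjusted p = 0.146 from edgeR). The groups overlapped, since *yap1* replicate 1 at 0.594 CPM lay below the highest WT library at 0.700 CPM. Without that library the edgeR call was made (log2 fold change 2.60, adjusted p = 0.0391), DESeq2 called it with all libraries (adjusted p = 0.0277), and the adjusted p over the other alternatives reached 0.573. Of all genes 2.24% were called in this comparison, 461 raised and 8 lowered. The 469 calls were 170 without uninjured WT replicate 1, 145 without uninjured WT replicate 2 and 292 without uninjured *yap1* replicate 2. They were 315 without uninjured *yap1* replicate 3, but 545 without uninjured *yap1* replicate 1 and 634 without uninjured WT replicate 3. *cxcl8a* had a log2 fold change of -0.33 (SE 0.50, adjusted p = 0.933 from edgeR), and *tnfa*, with 1 count in uninjured *yap1* Crispants and 0 in uninjured WT fish, gave no fold.

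The *il1b* difference between *wwtr1* Crispants and WT fish was smaller and did not pass the test before injury (log2 fold change 1.01, SE 0.67, adjusted p = 1 from edgeR). That of *cxcl8a* was 0.20 (SE 0.49, adjusted p = 1 from edgeR). Between uninjured *yap1* and *wwtr1* Crispants, where 0.834% of genes were called, *il1b* had a log2 fold change of 1.14 (SE 0.66, adjusted p = 0.956 from edgeR) and *cxcl8a* of -0.53 (SE 0.50, adjusted p = 1 from edgeR). The 175 calls behind that percentage rested on single libraries. Their number was 1 without uninjured *wwtr1* replicate 1, 0 without replicate 2 and 60 without replicate 3, and it was 39 without uninjured *yap1* replicate 2 and 114 without uninjured *yap1* replicate 3.

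After injury *cxcl8a* averaged 2.53-fold more in injured *wwtr1* Crispants than in injured WT fish, a comparison in which edgeR called 0% of genes. The lowest *wwtr1* level was 0.743 CPM and the highest WT level 0.540 CPM. The log2 fold change was 1.32 (SE 0.53), and it did not pass (adjusted p = 0.981 from edgeR). *il1b* was 2.10-fold and *tnfa* 2.41-fold higher on average in injured *wwtr1* Crispants than in injured WT fish, with overlapping *tnfa* and *il1b* levels (adjusted p = 0.993 for each from edgeR). In injured *yap1* Crispants against injured WT fish the ratio of means was 1.03 for *il1b* (adjusted p = 0.992 from edgeR), 2.01 for *tnfa* (adjusted p = 0.840) and 1.55 for *cxcl8a* (adjusted p = 0.790). The log2 fold change of *il1b* was 0.03, and -0.60 without injured *yap1* replicate 4. That of *tnfa* was 0.94, and without injured *yap1* replicate 3 it was -0.063, with a mean of 0.127 CPM in the other 3 injured *yap1* libraries. Between injured *yap1* and *wwtr1* Crispants the adjusted p was 0.967 for *il1b*, 1 for *tnfa* and 0.984 for *cxcl8a* from edgeR.

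Most genotype comparisons had no call anywhere in the table. edgeR called 0% of genes between injured *yap1* Crispants and WT fish, between injured *wwtr1* Crispants and WT fish, between uninjured *wwtr1* Crispants and WT fish and between injured *yap1* and *wwtr1* Crispants. At an unadjusted p under 0.05 these comparisons held 1731, 1047, 816 and 1158 genes, and DESeq2 called 165, 19, 23 and 171. Chance alone would put a share of 0.05 of the 20979 genes tested under that limit. The 1047 and 816 genes of the *wwtr1* comparisons with WT fish did not exceed that share, and the 1158 were little above it. Leaving out 1 library gave edgeR 37 calls in injured *yap1* Crispants against WT fish (without injured WT replicate 1), 55 in uninjured *wwtr1* Crispants against WT fish (without uninjured WT replicate 3) and 34 between injured *yap1* and *wwtr1* Crispants (without injured *yap1* replicate 3).

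**Figure D3:**
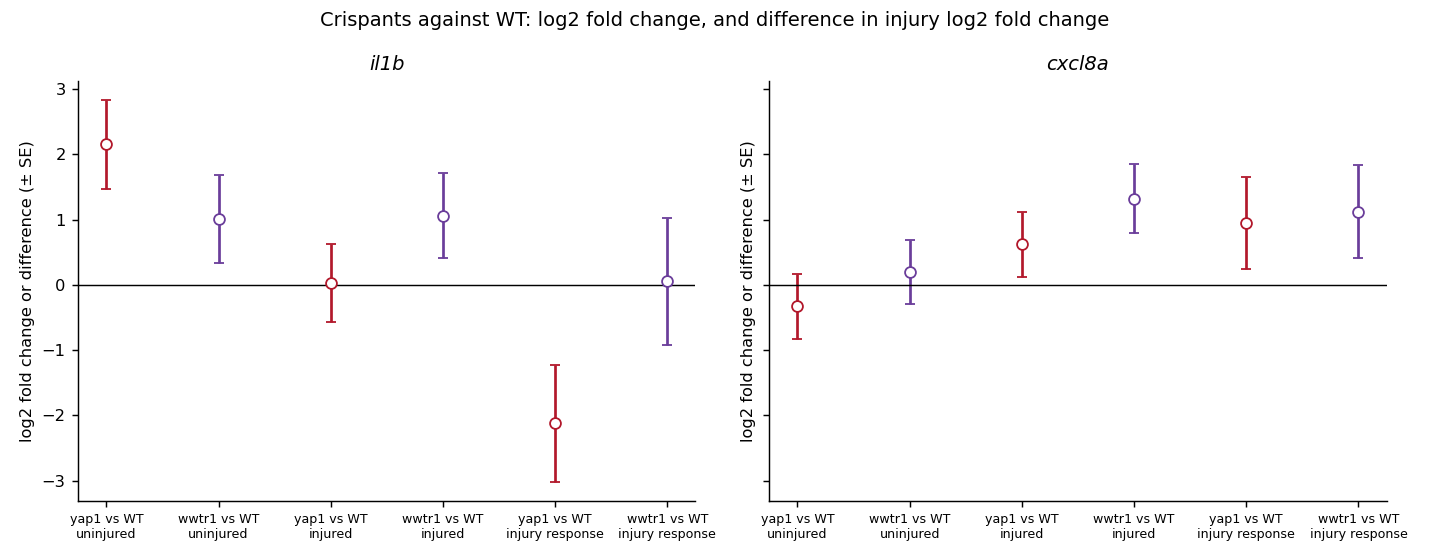
Fitted log2 fold change of Crispants against WT fish before and after injury, and difference between their injury log2 fold changes, for *il1b* and *cxcl8a* (points, with SE as bars, 19 libraries in one edgeR fit). The *il1b* values of *yap1* Crispants lie farthest from 0, at 2.15 before injury and -2.12 for the injury response, and no point passed the test after adjustment. The injury response difference is the difference after injury minus that before, so these *il1b* points share the same difference before injury.

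The injury response itself was compared between genotypes through the interaction term. For *il1b* the injury response of *yap1* Crispants minus that of WT fish was -2.12 on the log2 scale (SE 0.89, adjusted p = 0.549 from edgeR). It equals the difference from WT fish after injury (0.03) minus that before injury (2.15), so it largely restates the latter. The difference in response ranged from -2.75 without injured *yap1* replicate 4 to -1.62 without uninjured *yap1* replicate 3, and was not called in any of these fits. In *wwtr1* Crispants the *il1b* response differed from that of WT fish by 0.05 (SE 0.97, adjusted p = 1 from edgeR). For *cxcl8a* the difference was 0.95 in *yap1* Crispants (SE 0.70, adjusted p = 0.780 from edgeR) and 1.12 in *wwtr1* Crispants (SE 0.72, adjusted p = 1 from edgeR). For *tnfa* neither difference passed (adjusted p = 0.856 for *yap1* and 1 for *wwtr1* Crispants from edgeR). In both interactions edgeR called 0% of genes, with 1711 and 584 genes at an unadjusted p under 0.05 and 133 and 1 called by DESeq2, for *yap1* and *wwtr1* Crispants. The 584 lay below the share of 0.05 of all genes tested that chance alone would give. Without uninjured WT replicate 3 edgeR called 266 genes in the *yap1* interaction, 5 raised and 261 lowered, and 18 in the *wwtr1* interaction. Without uninjured *yap1* replicate 1 it called 7 in the *yap1* interaction, and without injured *yap1* replicate 1 it called 1.

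By mean level the order of the groups differed for each cytokine. *il1b* was highest in injured *wwtr1* Crispants, then uninjured *yap1* Crispants, injured *yap1* Crispants, injured WT fish, uninjured *wwtr1* Crispants and uninjured WT fish, and every neighbouring pair overlapped. *tnfa* ran from injured *wwtr1* Crispants (0.307 ± 0.126 CPM) through injured *yap1* Crispants (0.256 ± 0.259 CPM) to injured WT fish (0.127 ± 0.0951 CPM), which overlapped each other, and only then to the uninjured groups, which did not overlap the injured ones. *cxcl8a* ran from uninjured *wwtr1* Crispants through uninjured WT fish and uninjured *yap1* Crispants to injured *wwtr1*, *yap1* and WT fish, with the sole break in overlap of neighbours between uninjured *yap1* and injured *wwtr1* Crispants.

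Other genes were ranked by how closely their levels followed those of *il1b*. Over the 19 libraries, on log2(CPM + 0.5), the genes with a symbol most like *il1b* were *csf3b* (Pearson r = 0.837, rank 1 of 20978), which encodes a granulocyte colony-stimulating factor, and *mmp13a* (r = 0.805, rank 2), a collagenase gene. *mmp9*, a gelatinase gene of the wound epidermis and of neutrophils, was at rank 5 (r = 0.786). These libraries share 6 groups, depth and tissue composition, and r is given as a description. Without the libraries farthest from the *il1b* median, injured *wwtr1* replicate 1 and injured *yap1* replicate 4, r was 0.897 for *csf3b*, 0.831 for *mmp13a* and 0.750 for *mmp9* over 17 libraries. Within the 9 uninjured libraries it was 0.913 for *csf3b*, 0.899 for *mmp13a* and 0.838 for *mmp9*, and within the 10 injured libraries 0.682, 0.504 and 0.572 in the same order of genes. As deviations from the group means r was 0.833 for *csf3b* (rank 2), 0.795 for *mmp13a* (rank 10) and 0.783 for *mmp9* (rank 14). Other genes came first in these settings. They were *s100u* (r = 0.964) within the uninjured libraries, *edaradd* (r = 0.954) within the injured libraries and *pmch* (r = 0.847) on the deviations.

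Uninjured *yap1* replicate 3 was high in all of these genes, and replicate 2 in *csf3b* and *mmp13a*. *csf3b* had 0.317 to 5.12 CPM in injured *yap1* Crispants, with replicate 4 highest, against 0.211, 1.30 and 3.74 CPM in uninjured *yap1* Crispants. *mmp13a* had 11.0 to 55.3 CPM in injured *yap1* Crispants, again with replicate 4 highest, against 1.65, 10.4 and 36.4 CPM in uninjured *yap1* Crispants. *mmp9* had 320 to 912 CPM in injured *yap1* Crispants, against 66.0, 206 and 542 CPM in uninjured *yap1* Crispants. Uninjured *yap1* replicate 1 was the lowest of its group in *il1b*, *csf3b*, *mmp13a* and *mmp9* and replicate 3 the highest. In the uninjured *wwtr1* and WT libraries *mmp13a* was between 0.917 and 2.75 CPM and *csf3b* between 0.0248 and 0.545 CPM. *mmp9* reached 203 CPM in uninjured *wwtr1* Crispants and 145 CPM in uninjured WT fish, so that uninjured *yap1* replicate 2 stood little above the highest of these libraries in *mmp9*. The *yap1* to WT difference before injury was 3.02 for *mmp13a* (SE 0.81, adjusted p = 0.0624 from edgeR) and 2.83 for *csf3b* (adjusted p = 0.290) on the log2 scale, so neither passed.

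**Figure D4:**
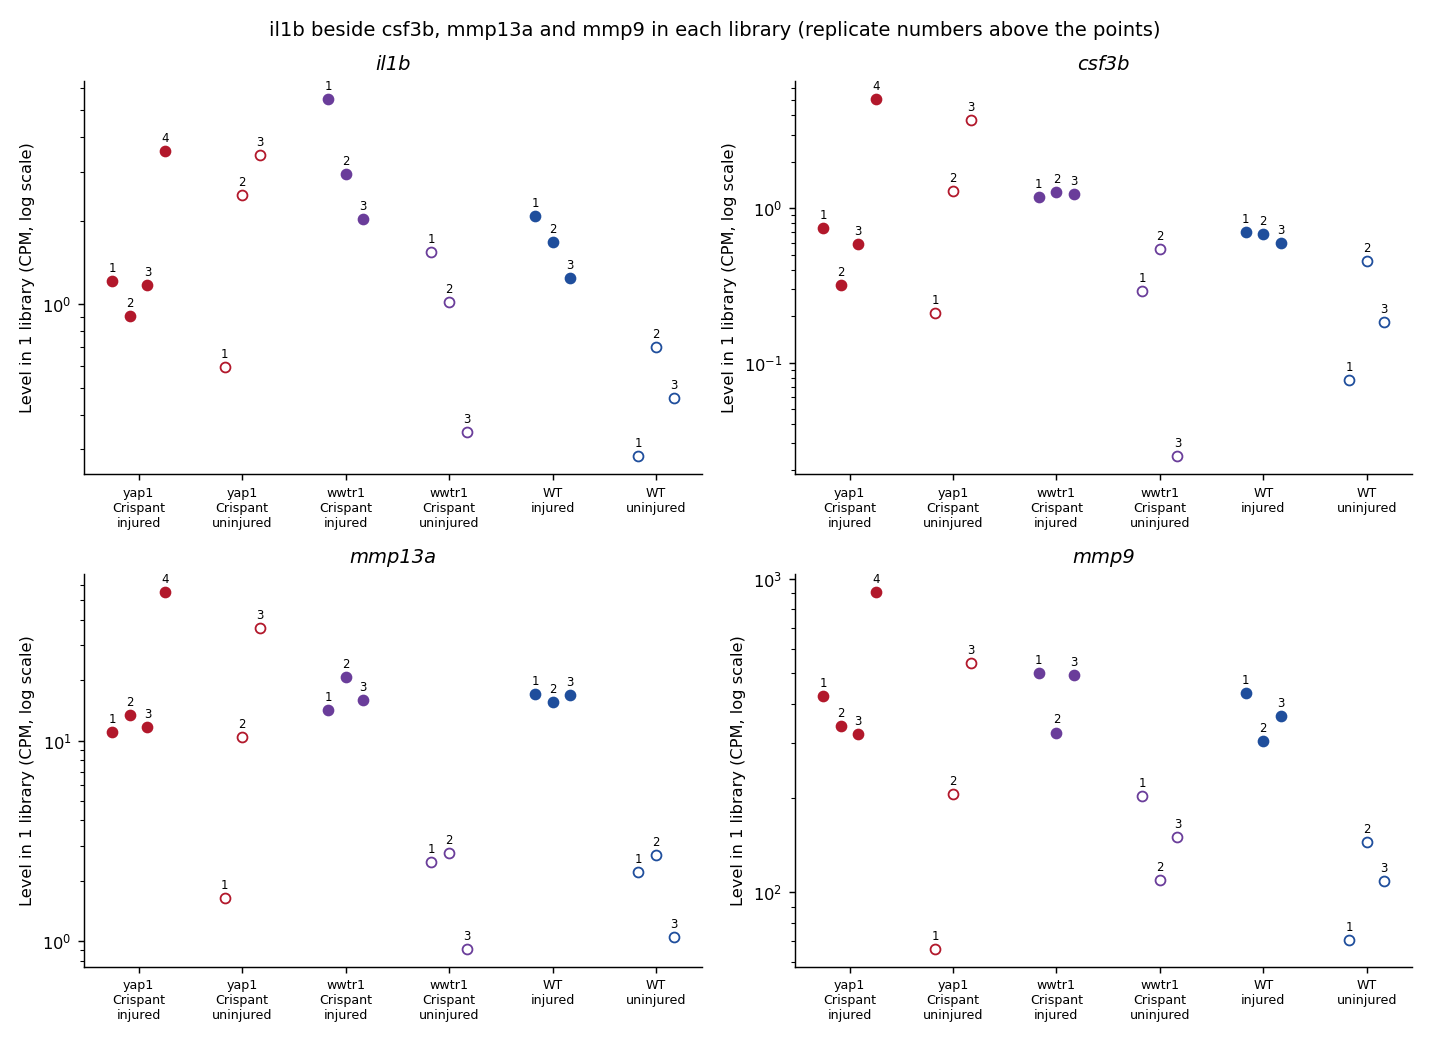
Levels of *il1b*, *csf3b*, *mmp13a* and *mmp9* (CPM, log axes) in each library of the 6 groups, with filled points for injured and open points for uninjured fins and the replicate number above each point. Uninjured *yap1* replicate 3 and injured *yap1* replicate 4 lie high in all 4 panels, uninjured *yap1* replicate 2 lies high in *il1b*, *csf3b* and *mmp13a* but close to the highest uninjured *wwtr1* library in *mmp9* (206 and 203 CPM), and uninjured *yap1* replicate 1 lies with the uninjured *wwtr1* and WT libraries.

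The other cytokines did not follow *il1b* closely. *tnfa* was at rank 2486 among 20978 genes by likeness to *il1b* (r = 0.441), and *cxcl8a* had r = -0.385 with *il1b* and r = -0.597 with *tnfa*. As deviations from the group means these correlations were 0.02 for *il1b* and *tnfa*, -0.07 for *il1b* and *cxcl8a* and -0.17 for *tnfa* and *cxcl8a*. The genes most like *tnfa* were *guca1aa* (r = 0.927), *nitr2b* (r = 0.880) and *mustn1* (r = 0.861), and those most like *cxcl8a* were *si:dkey-105n5.5* (r = 0.935), *ube2e3* (r = 0.927) and *hapln1* (r = 0.913). *tnfa* had 0 counts in 7 of 9 uninjured libraries, so the split by injury weighs heavily in its r. As deviations from the group means *guca1aa* was second (r = 0.809). Within the 10 injured libraries *si:dkey-71b5.2* (r = 0.969) was most like *tnfa*, and *pgbd4* (r = 0.938) most like *cxcl8a*.

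Leukocyte markers moved with *tnfa* upon injury. Of the 5 macrophage markers searched, *csf1ra*, the receptor of colony-stimulating factor 1, and *marco*, a scavenger receptor, were matched. Their summed level was 4.50 to 9.88 CPM in injured and 0.316 to 2.34 CPM in uninjured *yap1* Crispants, 5.96 to 8.04 CPM in injured and 0.0323 to 0.892 CPM in uninjured *wwtr1* Crispants, and 4.41 to 10.5 CPM in injured and 0.210 to 0.748 CPM in uninjured WT fish. *marco* rose in all 3 genotypes, with log2 fold changes of 3.95 in *yap1* Crispants, 5.19 in *wwtr1* Crispants and 4.88 in WT fish. It had at most 14 counts in any uninjured library. Like *tnfa*, *marco* passed the low-count filter through the injured groups, which favoured a rise, and its fitted values depend on the prior count. *csf1ra* rose in *wwtr1* Crispants (3.93) and WT fish (3.97), and in *yap1* Crispants its log2 fold change of 2.24 did not pass (adjusted p = 0.0704 from edgeR). No macrophage marker was at 0 in any group, and the part of macrophage number in the *tnfa* values was not tested.

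Of the neutrophil markers, *lyz*, a lysozyme gene, rose in all 3 genotypes, with log2 fold changes of 1.97 in *yap1* Crispants, 4.04 in *wwtr1* Crispants and 1.56 in WT fish. *csf3r*, the receptor of granulocyte colony-stimulating factor, rose in *yap1* Crispants and WT fish, and in *wwtr1* Crispants its adjusted p was 0.0991 from edgeR. With at most 5 counts in any uninjured library, *csf3r* also passed the low-count filter through the injured groups, which favoured a rise. *mmp9*, the third marker tested, made up nearly all of the summed neutrophil level, which was 322 to 914 CPM in injured and 66.3 to 542 CPM in uninjured *yap1* Crispants, 329 to 506 CPM in injured and 110 to 204 CPM in uninjured *wwtr1* Crispants, and 305 to 433 CPM in injured and 71.0 to 145 CPM in uninjured WT fish. In the uninjured *yap1* libraries, whose *il1b* ran from 0.594 to 3.45 CPM, *lyz* was 0.288, 0.395 and 0.585 CPM and *csf3r* had 0, 0 and 1 counts. The macrophage marker *csf1ra* ran from 0.257 to 1.96 CPM there, and *marco* from 0.0592 to 0.380 CPM. In uninjured *wwtr1* Crispants these reached 0.719 and 0.174 CPM, and in uninjured WT fish 0.645 and 0.184 CPM. Between uninjured *yap1* Crispants and WT fish edgeR called 0 of the 2 macrophage markers tested, beside 2.24% of all genes. Both markers had log2 fold changes above 0, with a median of 1.23. With so few markers, the lack of a call does not show equal macrophage content.

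Around the 3 cytokines, 28 of 30 further pathway genes with an ID could be tested, ordered as ligands, receptors, processing enzymes and antagonists, signalling proteins and targets. Upon injury 7 rose and 0 fell in *yap1* Crispants, 7 rose and 0 fell in *wwtr1* Crispants, and 8 rose and 2 fell in WT fish by edgeR. Over all genes tested 5.46% rose and 4.44% fell in *yap1* Crispants, 6.26% rose and 4.74% fell in *wwtr1* Crispants, and 8.24% rose and 7.79% fell in WT fish. *il11a*, *il11b*, *ccl19a.2* and *il10* passed the low-count filter through the injured groups, so the numbers raised were partly favoured in advance. With at least 10 counts in every library, 2 of 20 pathway genes rose in *yap1* Crispants, 3 in *wwtr1* Crispants and 4 in WT fish. Of all 15259 genes past that filter, 844, 922 and 1251 rose in the same order. By DESeq2 1128 of 21717 genes fell in *yap1* Crispants and 1326 of 22801 in *wwtr1* Crispants. In the Crispants 0 of the pathway genes fell by DESeq2 as well, and 0 had a negative value at an unadjusted p under 0.05. Their median log2 fold change was 0.35 in *yap1* Crispants, 0.68 in *wwtr1* Crispants and 0.32 in WT fish, beside 0.008 in *yap1* Crispants, -0.001 in *wwtr1* Crispants and -0.06 in WT fish over all genes tested. In *yap1* Crispants the number raised was 4 without uninjured replicate 1 and 4 without uninjured replicate 2. In WT fish the number lowered was 1 without injured replicate 3 and 1 without uninjured replicate 3.

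Among ligands, *il11a* and *il11b*, cytokines of the gp130 family, and the chemokine gene *ccl19a.2* were at few or no counts in uninjured fins. Like *tnfa*, these genes and *il10* passed the low-count filter through the injured groups, which favoured a difference between injured and uninjured fins. *ccl19a.2* had 5.98 to 59.9 CPM in injured and at most 0.176 CPM in uninjured *yap1* Crispants, 36.2 to 80.8 CPM in injured and at most 0.397 CPM in uninjured *wwtr1* Crispants, and 10.9 to 25.1 CPM in injured and at most 0.0774 CPM in uninjured WT fish, and it rose in all 3 genotypes. *il11b* also rose in all 3, with 38 to 153 counts per library in injured and 6 counts in all in uninjured *yap1* Crispants, and *il11a* rose in *yap1* Crispants and WT fish. *tnfb*, the paralog of *tnfa*, was not called upon injury in any genotype. It averaged 30.8 ± 13.4 CPM in injured and 18.1 ± 16.0 CPM in uninjured *yap1* Crispants (SD, n = 4 and n = 3; adjusted p = 0.435 from edgeR). In *wwtr1* Crispants it was 43.3, 36.7 and 60.4 CPM in injured and 6.55, 31.3 and 6.69 CPM in uninjured fins (adjusted p = 0.094 from edgeR). It averaged 26.5 ± 7.40 CPM in injured and 53.2 ± 21.3 CPM in uninjured WT fish (SD, n = 3 each; adjusted p = 0.278 from edgeR). *cxcl8b.1*, a paralog of *cxcl8a*, took log2 values of -1.11 in *yap1* Crispants, 1.48 in *wwtr1* Crispants and -0.35 in WT fish, none of which passed, and *cxcl18b*, another chemokine gene, passed in none either.

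Among receptors, the Tnfr1 gene *tnfrsf1a* rose in all 3 genotypes, with 257 ± 45.4 CPM in injured and 113 ± 44.6 CPM in uninjured *yap1* Crispants (SD, n = 4 and n = 3), and with log2 fold changes of 1.18 in *yap1* Crispants, 1.30 in *wwtr1* Crispants and 1.56 in WT fish. The interleukin 6 receptor gene *il6r* rose as well, with log2 fold changes of 1.41 in *yap1* Crispants, 2.26 in *wwtr1* Crispants and 3.21 in WT fish. The Tnfr2 gene *tnfrsf1b* did not pass in any genotype. The Cxcl8 receptor gene *cxcr1* was too low to be tested.

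The caspase genes *caspa* and *caspb*, whose products include an enzyme that matures Il1b in zebrafish, did not pass in any genotype. The anti-inflammatory cytokine gene *il10* rose in *yap1* Crispants (log2 fold change 3.98) and *wwtr1* Crispants (5.31), with 52 against 2 counts and 89 against 2 counts over all libraries, and its value in WT fish was 1.69 (adjusted p = 0.329 from edgeR). *tnfaip3*, which encodes the NF-κB inhibitor A20, was the only one of the 28 genes that edgeR called between genotypes, at 2.46 on the log2 scale in uninjured *yap1* against *wwtr1* Crispants (adjusted p = 0.0369 from edgeR). None of the 28 was called there with the replicate block, without any 1 of the 3 uninjured *wwtr1* libraries, or without uninjured *yap1* replicate 2 or 3. DESeq2 called 2 of the 28 in that comparison and 3 in uninjured *yap1* Crispants against WT fish, 2 raised and 1 lowered. Over all genes DESeq2 called 429 of 21174 and 769 of 22258 in the same order. Between uninjured *yap1* and *wwtr1* Crispants edgeR called 0.834% of all genes. Pathway genes not called upon injury in WT fish, *il10* and *tnfaip3* among them, were named after their values were seen.

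The NF-κB subunit genes *nfkb1*, *nfkb2*, *rela* and *relb* were not called upon injury in any genotype. Of the IκB inhibitor genes, which NF-κB itself induces, *nfkbiaa* had 38.9 ± 9.73 CPM in injured and 127 ± 59.1 CPM in uninjured WT fish (SD, n = 3 each), and fell by 1.71 on the log2 scale (SE 0.35, adjusted p = 0.00181 from edgeR). *nfkbiab* fell by 1.06 in WT fish (adjusted p = 0.00444 from edgeR). Neither passed in the Crispants, where the log2 fold changes were -0.53 and -0.29 in *yap1* and 0.49 and 0.41 in *wwtr1* Crispants, and the differences from WT fish were not called either. Before injury *nfkbiaa* averaged 52.0 CPM in *yap1* and 47.5 CPM in *wwtr1* Crispants, below the 127 CPM of uninjured WT fish. *nfkbiab* averaged 208 CPM in uninjured *yap1* and 168 CPM in uninjured *wwtr1* Crispants, against 340 CPM in uninjured WT fish. In these uninjured comparisons with WT fish edgeR called 0 of the 9 signalling genes of the list. Over all genes it called 2.24% for *yap1* and 0% for *wwtr1* Crispants. In WT fish only 1 pathway gene was lowered without injured replicate 3, and only 1 without uninjured replicate 3. A link between the IκB inhibitor genes and *cxcl8a* or *tnfa* was not tested.

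Of the target genes, *acod1*, which encodes the itaconate-producing enzyme of activated macrophages, rose in all 3 genotypes, with log2 fold changes of 3.51 in *yap1* Crispants, 5.89 in *wwtr1* Crispants and 4.16 in WT fish. *mmp13a* rose in *wwtr1* Crispants (3.04) and WT fish (3.06) but had 0.50 in *yap1* Crispants (adjusted p = 0.680 from edgeR), and *mmp9* was called in WT fish (1.76, adjusted p = 0.0239 from edgeR). The log2 fold change of *mmp9* was 0.88 in *yap1* Crispants (adjusted p = 0.253 from edgeR) and 1.51 in *wwtr1* Crispants (adjusted p = 0.0622 from edgeR), where injured fins had 324 to 502 CPM and uninjured fins 110 to 203 CPM, and neither difference from WT fish in the *mmp9* response was called. The difference between *yap1* Crispants and WT fish in the *mmp13a* response was -2.55 (SE 1.03, adjusted p = 0.539 from edgeR), close in size to that of *il1b*.

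**Figure D5:**
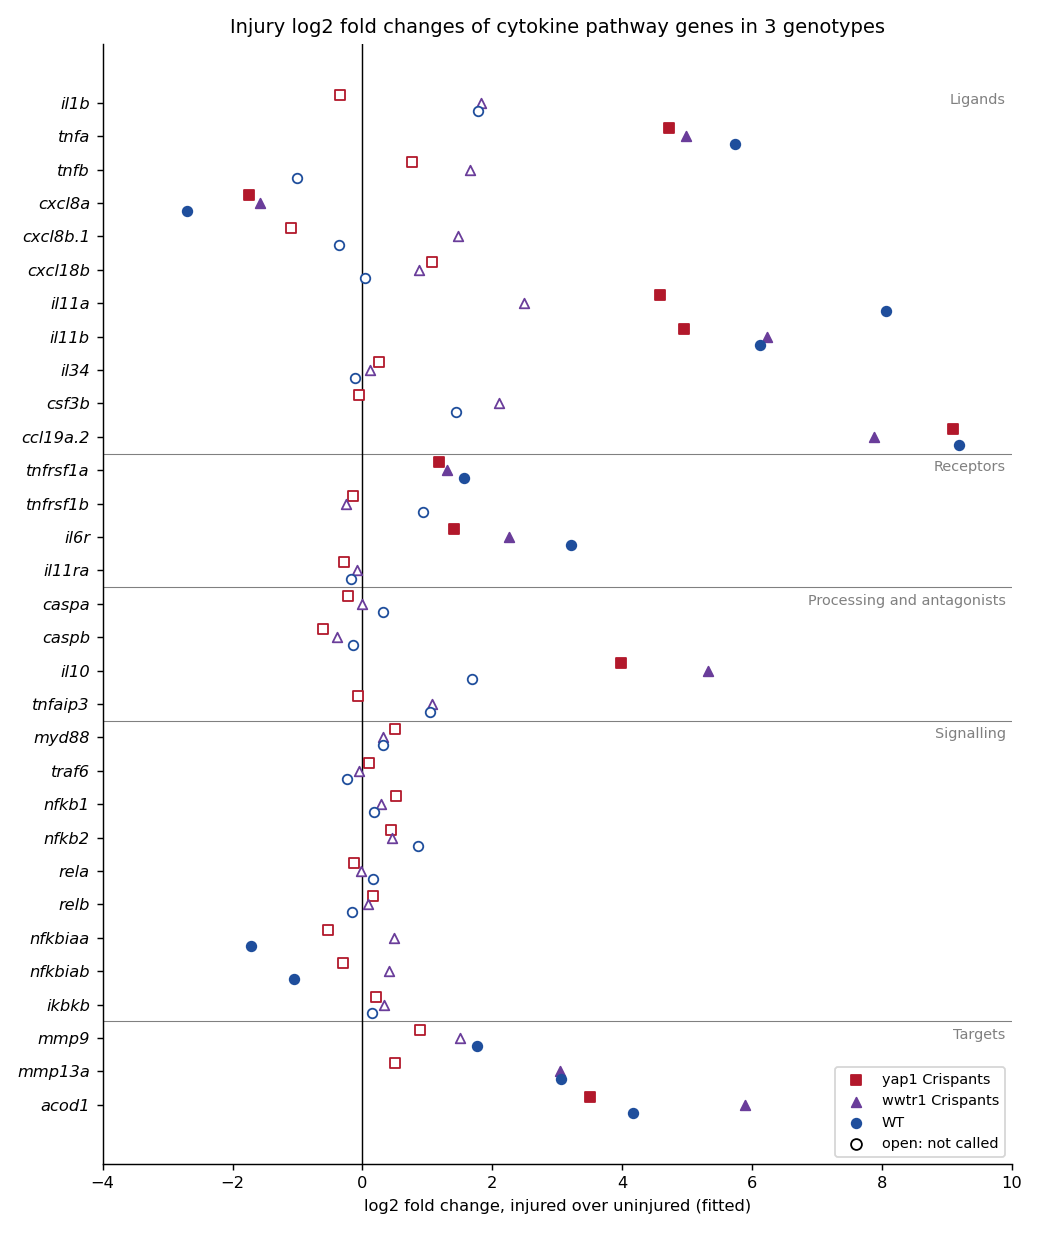
Fitted log2 fold change, injured over uninjured, of the 3 cytokines and 28 pathway genes grouped by role, with squares for *yap1* Crispants, triangles for *wwtr1* Crispants and circles for WT fish, filled where called. *tnfa* lies right of 0 and *cxcl8a* left of 0 in all 3 genotypes, and *il1b*, *csf3b* and *mmp13a* lie near 0 in *yap1* Crispants (-0.34, -0.06 and 0.50). Values of *tnfa*, *il11a*, *il11b*, *ccl19a.2* and *il10* rest on few uninjured counts and depend on the prior count.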

How the data were processed

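Bulk RNAseq was made from pools of tail fins with the NEBNext Single Cell/Low Input kit. The authors used Trim Galore for trimming, BWA-MEM for alignment to GRCz11 and HTSeq for counting on Ensembl genes, and deposited raw counts per gene and library, with no normalization. Tool versions are not given in the sources used here, nor whether counting used strand, so overlapping, antisense and paralogous genes are uncertain. Symbols came from a gene name table that matched 29201 of 32520 IDs, compared without case.

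The analysis used edgeR 4.0.16 in R 4.3.3 (filterByExpr over the 6 groups, TMM, 1 robust quasi-likelihood fit of all 19 libraries, Benjamini-Hochberg adjustment over 20979 genes, checked on simulated counts). A gene was called when its adjusted p was under 0.05 and its log2 fold change beyond 1 in either direction, the thresholds of the study. DESeq2 1.42.0, other scaling, filters, a replicate block, the adjusted p alone without the fold change threshold, the groups compared alone and each library left out were alternatives. No libraries of a group agreed within sampling noise, and p-values measure the spread between pools.

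Named were the members, pathway genes called upon injury in WT fish, the 3 genes most like each member, and markers. Other pathway genes were named by role after their values were seen. Members and lists were chosen with earlier results of these data known. Of 42 pathway symbols 33 matched an ID, and of 19 markers 14 did.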

Additional observations from a re-analysis of the deposited data

Results flagged for a closer look

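In injured *yap1* Crispants, the only group with the 4 libraries needed for the screen, *il1b* was highest in replicate 4 at 3.57 CPM, against 0.908 to 1.21 CPM in the other 3 libraries. The gap to the nearest library was 0.886 of the whole range, above Dixon's 95% critical value for 4 libraries. *tnfa* was highest in replicate 3 of the same group at 0.640 CPM, against 0.0735 to 0.161 CPM in the others, and its gap was 0.846 of the range. Each flag concerns a different library, and *cxcl8a* showed no such gap. Chance alone flags about 1 in 20 groups, and 3 were screened.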

How the results depend on the processing

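Over 414 alternative values of 30 results, 374 kept their direction and their side of the threshold, 16 turned in sign, 18 lost a call and 6 gained a call, and the cause was not tested. The setting with the adjusted p alone reused the main fit, so it could neither turn a sign nor end a call. Most of the results were uncalled in the main fit and had no call to lose. *tnfa* and *cxcl8a* gave no value with at least 10 counts in every library, and *tnfa* gave none for injury in the groups compared alone. For *cxcl8a* upon injury, the call in *wwtr1* Crispants was lost without a low-count filter (-1.57, adjusted p = 0.0573), and the call in *yap1* Crispants in the groups compared alone (-1.73, adjusted p = 0.0623). *il1b* gained a call in WT fish in the groups compared alone (1.78, adjusted p = 0.0233), and with DESeq2 in WT fish (1.80), in *wwtr1* Crispants (1.81) and in uninjured *yap1* Crispants against WT fish (2.17).

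Correlations of same-numbered libraries' deviations ran from -0.22 to 0.41 and exceeded 0.1 in all 3 pairs of no comparison. All 3 pairs were above 0 upon injury in WT fish and in injured *yap1* Crispants against WT fish or *wwtr1* Crispants. These few correlations cannot settle whether the numbers pair the samples. With the block edgeR called 3763 genes against 3363 upon injury in WT fish, 2640 against 2308 in *wwtr1* Crispants and 1866 against 2078 in *yap1* Crispants. With the replicate block *il1b* upon injury in *wwtr1* Crispants was called (1.84, adjusted p = 0.0463), *cxcl8a* there was not (-1.58, adjusted p = 0.0502), and *il1b* in injured *yap1* Crispants against WT fish became -0.57. Only injured *yap1* Crispants had a replicate 4, so the block fitted that library with a term of its own. The *yap1* values with the block therefore leave that library out of the group mean. Without it and without a block, 1810 genes were called upon injury in *yap1* Crispants. *il1b* in injured *yap1* Crispants against WT fish was then -0.60. The block changed no other call of a member.

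With each library left out in turn, log2 fold changes upon injury ranged for *tnfa* from 3.72 to 6.68 in *yap1* Crispants, from 4.37 to 6.97 in *wwtr1* Crispants and from 4.87 to 6.02 in WT fish, for *cxcl8a* from -2.004 to -1.45 in *yap1* and from -1.74 to -1.38 in *wwtr1* Crispants, and for *il1b* from -0.97 to 0.15 in *yap1* Crispants. Against WT fish before injury, *il1b* ranged from 1.65 to 2.60 and *cxcl8a* from -0.64 to 0.17 in *yap1* Crispants, and *cxcl8a* from -0.11 to 0.69 in *wwtr1* Crispants. After injury, *il1b* ranged from -0.60 to 0.24 and *tnfa* from -0.063 to 1.77 in *yap1* Crispants against WT fish, and *tnfa* from -1.28 to 0.049 in *yap1* against *wwtr1* Crispants. The differences in injury response from WT fish ranged from -2.03 to 0.94 for *tnfa* in *yap1* Crispants, and from -0.43 to 0.58 for *il1b* and -1.34 to 1.22 for *tnfa* in *wwtr1* Crispants.

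The *il1b* correlations over part of the libraries and the pooled *tnfa* ratios without single libraries were chosen after seeing the data. With log2(CPM + 2) the genes with a symbol most like *il1b* were *hace1* and *mfsd11*, and *csf3b* was not among the first 3. With at least 10 counts in every library, 20 of the 28 pathway genes were tested and 2 rose upon injury in *yap1* Crispants, 3 in *wwtr1* Crispants and 4 in WT fish. DESeq2 called 769 genes against 469 by edgeR in uninjured *yap1* Crispants against WT fish, and 429 against 175 in uninjured *yap1* against *wwtr1* Crispants. In the groups compared alone these counts were 245 and 328, and 1322 genes against 2078 were called upon injury in *yap1* Crispants. That last count was 1360 without uninjured *yap1* replicate 2.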
